A study of Mus musculus with 2 samples.

Results

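The genes described here are the 7 keratins of simple, single-layered epithelia: Krt7, Krt8, Krt18, Krt19, Krt20, Krt23 and Krt80. They were taken by gene symbol, and all 7 were found among the 25668 genes of both expression tables. The tables come from mouse fallopian tube (oviduct) epithelial organoids, which are epithelial cells grown as hollow bodies in culture. The control group is 1 library of wild-type organoids, genotype label WT, from a mouse of a B6J.129(B6N) strain. The mouse carried the allele Gt(ROSA)26Sortm1(CAG-cas9*,-EGFP)Fezh, which places Cas9 and EGFP under the CAG promoter at the Rosa26 locus. The other group is 1 library of organoids in which Trp53, the gene of the tumour suppressor p53, was knocked out. Both libraries carry the treatment label conditioned medium. The labels do not give the age of the mouse, the number of animals, or whether the knockout organoids are 1 clone. With 1 library in each group there is no replicate check, and every difference below compares these 2 libraries.

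Keratins form the intermediate filaments of epithelial cells. Each filament is built from pairs of an acidic type I and a basic type II chain, so a cell needs members of both classes. Krt8 (type II) and Krt18 (type I) encode the founding pair of simple epithelia, and Krt7 (type II) and Krt19 (type I) join them in ducts and in glandular and reproductive tract linings. Krt19 encodes a short keratin that lacks most of the tail domain. Krt20 (type I) is known from intestine, umbrella cells of the urothelium and Merkel cells. Krt23 (type I) and Krt80 (type II) are less studied epithelial keratins, Krt80 being found in many epithelia near cell junctions.

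The values are TPM, in which the reads of each gene are set against its length and against all reads of the library, so levels of different genes can be set side by side. The low values of both tables allowed the reads behind them to be recovered. The libraries were sequenced as paired reads, and whether 1 counted unit is a read or a read pair is not given in the sources used here; each unit is called a read below, and counting intervals take it as 1 independent count. Over all genes with a known length these summed to an estimated 108958572 reads in the control and 30053520 in knockout organoids. Trp53 stood at 83.2 and 2.42 TPM in control and knockout organoids. The pan-epithelial adhesion genes Epcam (713 and 697 TPM) and Cdh1 (243 and 212 TPM) were abundant in both libraries. Pax8, the factor of oviduct secretory cells, was 44.8 and 46.0 TPM. The other 3 secretory markers, Ovgp1, Sox17 and Msx2, were at least 2-fold lower in knockout organoids. All 6 fibroblast markers were listed at 0 in knockout organoids, and their summed level in control organoids was 0.0667 TPM. The 4 endothelial markers summed to 0.0829 and 0.0269 TPM.

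The 7 genes fell into an abundant set and a low set. Krt18, Krt19, Krt8 and Krt7 each stood at 877 TPM or more in both libraries, and Krt20, Krt80 and Krt23 stood at 10.9 TPM or less in both. In the control library the order was Krt18, Krt19, Krt8, Krt7, Krt20, Krt80 and Krt23. In the knockout library it was Krt19, Krt18, Krt8, Krt7, Krt80, Krt23 and Krt20. Both orders depend on the gene length used for TPM. With the coding length in its place, Krt7 stood above Krt8 and Krt80 above Krt20 in control organoids. In knockout organoids Krt7 then stood above Krt18. In TPM as deposited, the 95% Poisson counting intervals of neighbours in either order did not overlap. Such intervals cover counting error alone: the reads carry no molecular identifiers and are not independent molecules. In bulk RNA of this kind, fewer cells of a type and less RNA per cell cannot be told apart.

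**Figure D1:**
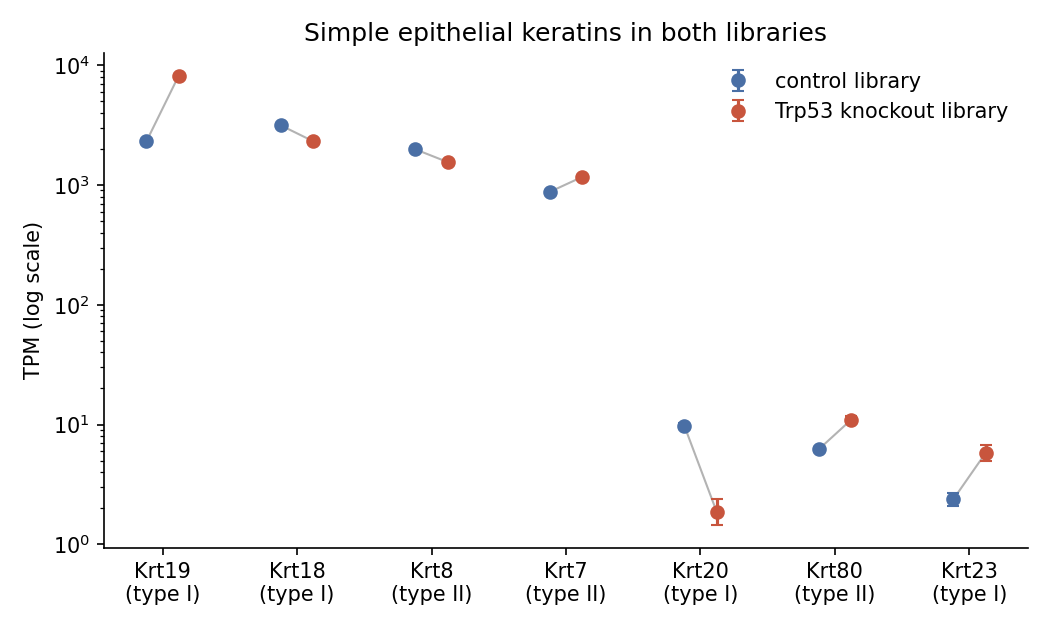
TPM (log axis) of the 7 simple epithelial keratins in control organoids (blue) and the Trp53 knockout library (red), with 95% Poisson counting intervals as bars, which are smaller than the points for the abundant genes. Krt19 goes from 2313 to 8176 TPM and Krt20 from 9.77 to 1.88 TPM, while Krt18, Krt8 and Krt7 each differ by less than 2-fold between the libraries.

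Krt19 had the largest gain in level of the 7 genes. It stood at 2313 and 8176 TPM in control and knockout organoids, from 217036 and 227940 reads. The TPM ratio of knockout to control was 3.53, with an exact Clopper-Pearson counting interval at 95% of 3.51 to 3.56. Krt19 was at rank 66 of all genes in control organoids and at rank 9 in knockout organoids. Its gain of 5863 TPM was larger than the gain of all 7 genes together (4896 TPM), because the other 6 summed to 6024 and then 5057 TPM. Krt19 lies on chromosome 11 between Krt15 and Krt9. Krt15, which basal cells express, was 68.2 TPM and 1811 TPM in control and knockout organoids, and Krt9, a keratin of palm and sole skin, was listed at 0 and 0.0219 TPM.

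Krt8 and Krt18, the founding pair, were both somewhat lower in knockout organoids and stayed within 2-fold. Krt8 was 1984 TPM and 1554 TPM in control and knockout organoids, a ratio of 0.783 (counting interval 0.776 to 0.790). Krt18 was 3144 and 2317 TPM, a ratio of 0.737 (counting interval 0.731 to 0.744). These 2 genes kept nearly the same proportion to each other, with 1.58 Krt18 transcripts for each Krt8 transcript in control and 1.49 in knockout organoids. Krt19 stood at 1.17 times Krt8 in control organoids and 5.26 times Krt8 in knockout organoids. Krt8 and Krt18 are direct neighbours on chromosome 15, where Krt18 is a type I gene at the edge of the type II cluster. The next coding gene beyond Krt18, Eif4b, a translation initiation factor, was 122 and 133 TPM, and the one beyond Krt8, the keratin gene Krt78, was 0.103 and 0.428 TPM.

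The upstream sequences of this neighbouring pair are shown because both genes were lower by a like factor, and those of Krt7 and Krt20 because they differ from the pair in direction or size. Each is the run of 250 bases before the annotated start of the gene, 5′ to 3′ on the strand of the gene, from RefSeq on GRCm38.p6, which is an earlier build than that of the deposited values. RefSeq windows were matched for 5 of the 7 genes (Krt7, Krt8, Krt18, Krt20 and Krt23). Capitals mark matches on either strand to TATAAA, to the GC box GGGCGG, to the AP-1 motif TGANTCA or to the p53 half-site. The windows are chr15:102004343-102004592 (minus strand) for Krt8, chr15:102027966-102028215 (plus strand) for Krt18, chr15:101412153-101412402 (plus strand) for Krt7 and chr11:99438154-99438403 (minus strand) for Krt20.
Krt8: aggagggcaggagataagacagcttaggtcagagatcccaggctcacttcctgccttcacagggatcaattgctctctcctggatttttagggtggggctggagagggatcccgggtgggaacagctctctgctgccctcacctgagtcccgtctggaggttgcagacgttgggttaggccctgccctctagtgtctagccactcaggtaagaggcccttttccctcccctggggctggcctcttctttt
Krt18: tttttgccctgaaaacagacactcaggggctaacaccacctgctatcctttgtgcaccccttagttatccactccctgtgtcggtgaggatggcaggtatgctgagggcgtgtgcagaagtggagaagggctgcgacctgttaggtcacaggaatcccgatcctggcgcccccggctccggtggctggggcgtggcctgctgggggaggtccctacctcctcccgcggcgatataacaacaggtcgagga
Krt7: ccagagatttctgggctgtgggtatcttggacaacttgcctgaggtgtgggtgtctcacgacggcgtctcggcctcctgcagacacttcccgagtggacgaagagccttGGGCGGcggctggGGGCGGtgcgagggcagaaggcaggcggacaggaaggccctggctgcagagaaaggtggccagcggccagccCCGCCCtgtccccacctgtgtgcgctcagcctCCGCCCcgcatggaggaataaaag
Krt20: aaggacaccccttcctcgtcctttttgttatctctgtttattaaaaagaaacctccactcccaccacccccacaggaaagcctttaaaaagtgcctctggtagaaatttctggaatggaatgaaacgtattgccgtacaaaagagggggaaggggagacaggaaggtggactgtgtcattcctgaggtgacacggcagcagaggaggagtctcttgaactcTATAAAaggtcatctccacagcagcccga

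Krt7 held 4 matches to the GC box and Krt20 held 1 match to TATAAA, beginning 29 bases before the start. The windows of Krt8, Krt18 and Krt23 held no match to any of the 4 motifs. Over all 32851 RefSeq windows of the same length, 32.7% held the GC box, 12.4% TATAAA, 6.75% the AP-1 motif and 7.13% the p53 half-site. The GC content was 58.0% for Krt8, 60.4% for Krt18, 66.0% for Krt7, 52.8% for Krt23 and 48.0% for Krt20. A match or its absence describes the letters in these windows only.

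Krt7 was modestly higher in knockout organoids, opposite in direction to its type II relative Krt8. It stood at 877 TPM and 1167 TPM in control and knockout organoids, a ratio of 1.33 (counting interval 1.32 to 1.34). The Krt7 to Krt8 ratio was 0.442 in control and 0.751 in knockout organoids. The place of Krt7 in the order depends on the gene length used for TPM. The recovered reads of Krt7 were whole at a length of 4293 bases, the union of the exons of its protein-coding transcripts in GENCODE M21, of which 1371 bases are coding. For Krt8 the length was 1958 bases with 1470 coding, for Krt18 1437 with 1269 coding and for Krt19 1576 with 1209 coding. Per coding length, in the same scale as TPM, Krt7 stood at 2746 in control organoids, above Krt8 at 2643. In the knockout library it stood at 3655 per coding length, above Krt18 at 2624 and Krt8 at 2069, and below Krt19 at 10658. Which exons the Krt7 reads fell on is not given by the tables. The ratio between the libraries does not depend on the length.

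Krt20, of the low set, had the largest fold between the libraries in TPM as deposited. It was 9.77 and 1.88 TPM in control and knockout organoids, from 1121 and 64 reads. It was lower by a factor of 5.20, with a counting interval of 4.04 to 6.81. In log2(TPM + 1) the differences were −1.90 for Krt20 and 1.82 for Krt19. On the log2 scale with a pseudocount, the place of Krt20 ahead depends on the scaling and the pseudocount. Krt19 was ahead after rescaling by the median ratio (−1.79 for Krt20 and 2.0 for Krt19) and after quantile normalization (−1.57 and 1.76). It was also ahead with a pseudocount of 5 (−1.10 and 1.82). Krt20 was ahead with a pseudocount of 0.1 (−2.32 and 1.82). It was also ahead without mitochondrially encoded and the 100 highest other genes (−2.07 and 1.83). Other genes of tissues known for Krt20 were low or mixed. Upk1a, an uroplakin of umbrella cells, was 14.6 and 1.95 TPM, and Upk2, its partner on the umbrella cell surface, was 0.279 and 3.55 TPM. The 4 intestinal markers summed to 0.551 and 0.285 TPM, and the 4 Merkel cell markers summed to 0.0178 TPM in control organoids and were all listed at 0 in knockout organoids.

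Krt23 and Krt80 were higher in knockout organoids. In TPM as deposited, Krt20 was the highest of the low set in control organoids and the lowest in knockout organoids. Per coding length Krt80 was the highest of the low set in control organoids, at 20.6 beside 14.6 for Krt20. Krt20 was still the lowest in knockout organoids, at 2.80. Krt23, which lies next to Krt20 on chromosome 11, was 2.37 and 5.78 TPM from 221 and 160 reads, a ratio of 2.44 (counting interval 1.98 to 3.0). This interval reached below 2-fold. Krt80, which lies next to Krt7 on chromosome 15, was 6.22 and 10.9 TPM from 1660 and 869 reads, a ratio of 1.76 (counting interval 1.62 to 1.91). The Krt23 to Krt20 ratio was 0.243 in control and 3.08 in knockout organoids.

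As shares of the summed TPM of the 7 genes, the make-up of the group was rearranged around Krt19. Krt19 took 27.7% in control and 61.8% in knockout organoids. Krt18 took 37.7% and 17.5%, and Krt8 took 23.8% and 11.7%. Krt7 took 10.5% and 8.82%, a smaller share in knockout organoids although its TPM was higher. Krt20, Krt80 and Krt23 took 0.117%, 0.0745% and 0.0285% in control organoids and 0.0142%, 0.0827% and 0.0437% in knockout organoids. Per coding length the share of Krt19 was 25.1% and 55.9%, and that of Krt7 was 22.9% and 19.2%.

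**Figure D2:**
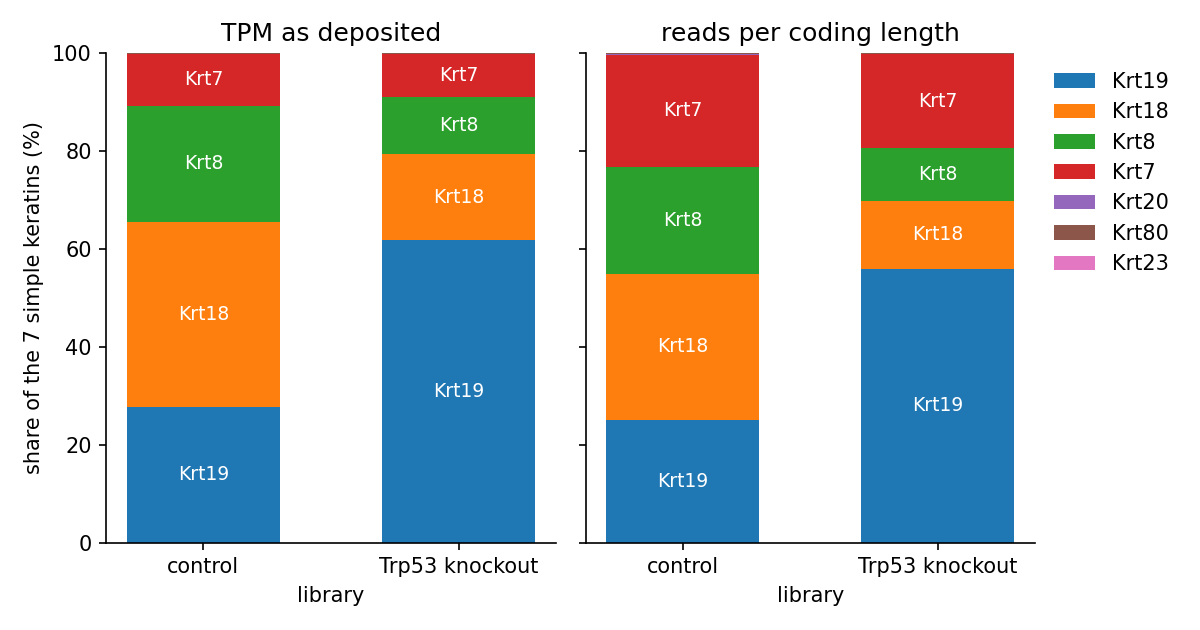
Share (%) of each of the 7 genes in their sum, for the control and the Trp53 knockout library, from TPM as deposited (left) and from reads per coding length (right). Krt19 takes 27.7% and then 61.8% on the left and 25.1% and then 55.9% on the right, and the 3 low genes are too small to be seen.

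The sum of the 7 genes was 8337 and 13233 TPM in control and knockout organoids, a ratio of 1.59 (counting interval 1.58 to 1.59). Without Krt19 the sum was 6024 and 5057 TPM, a ratio of 0.839. The gain lay in the type I chains, through Krt19. The 4 type I members (Krt18, Krt19, Krt20 and Krt23) summed to 5470 and 10502 TPM, and the 3 type II members (Krt7, Krt8 and Krt80) summed to 2868 and 2732 TPM. There were 1.91 type I transcripts for each type II transcript in control and 3.84 in knockout organoids. Per coding length this ratio was 1.22 and 2.31. Without Krt19 it was 1.1 and 0.851 in TPM as deposited. The ratio without Krt19 also depends on the length, since Krt7 enters the type II sum of control organoids at 877 TPM but at 2746 per coding length.

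In knockout organoids the ratio of type I to type II transcripts was smaller over all keratins than over the 7 simple ones. The tables list 53 keratin genes, 28 of type I and 25 of type II. The 46 others summed to 150 and 6062 TPM in control and knockout organoids. Other type II keratins added 72.1 and 2864 TPM, and other type I keratins added 78.3 and 3199 TPM. Over all 53 genes there were 1.89 type I transcripts for each type II transcript in control and 2.45 in knockout organoids.

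**Figure D3:**
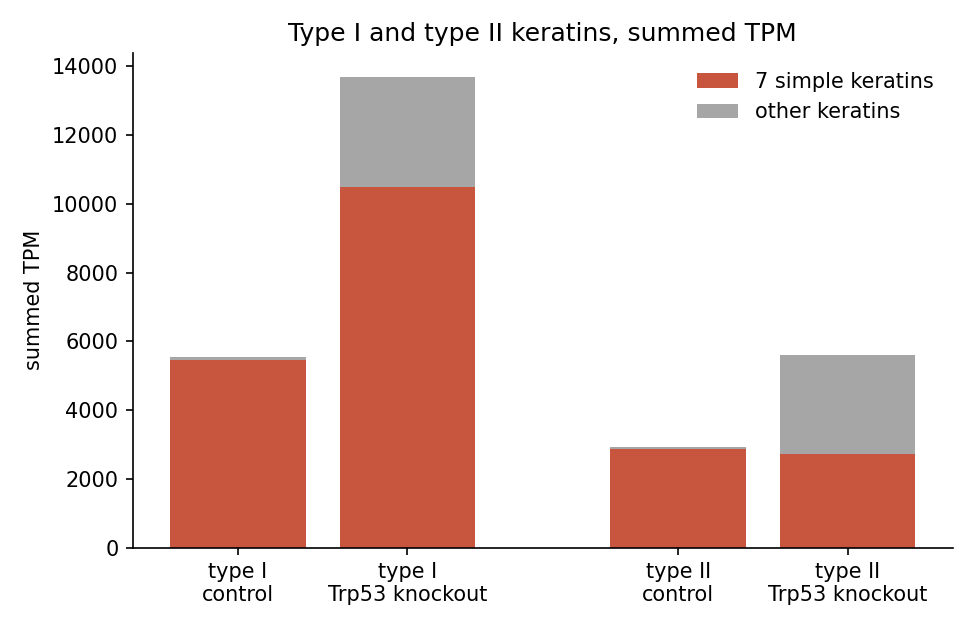
Summed TPM of type I keratins (left pair of bars) and type II keratins (right pair) in the control and the Trp53 knockout library, with the 7 simple epithelial keratins in red and all other keratins in grey. The red part of type I goes from 5470 to 10502 TPM, that of type II from 2868 to 2732 TPM, and the grey parts of the knockout library are 3199 and 2864 TPM.

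The 7 simple keratins made up 98.2% of all keratin TPM in control and 68.6% in knockout organoids. Of all TPM they made up 0.834% and 1.32%. The other keratins that took over 5% of keratin TPM in either library were 4 genes of stratified epithelium, all in knockout organoids: Krt15 with 9.38%, the basal keratin Krt5 with 8.0%, and the suprabasal pair Krt4 and Krt13 with 6.08% and 5.91%. Krt5 stood at 1543 TPM in knockout organoids, with a Poisson interval of 1531 to 1556. This interval overlapped that of Krt8 in the same library, 1540 to 1567 TPM. In the control library Krt5 was at 0.130 TPM from 17 reads. Of the list of 11 stratified keratins, 10 reached a mean TPM of 1, and 9 of these were at least 2-fold higher and 0 lower in knockout organoids, against 8.35% and 15.3% of the 11228 genes tested, with Krt5, Krt14 (0.129 and 200.4 TPM) and Krt13 (4.29 and 1140 TPM) differing most. Krt14 is uncertain, since close paralogs may take some of its reads.

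**Figure D4:**
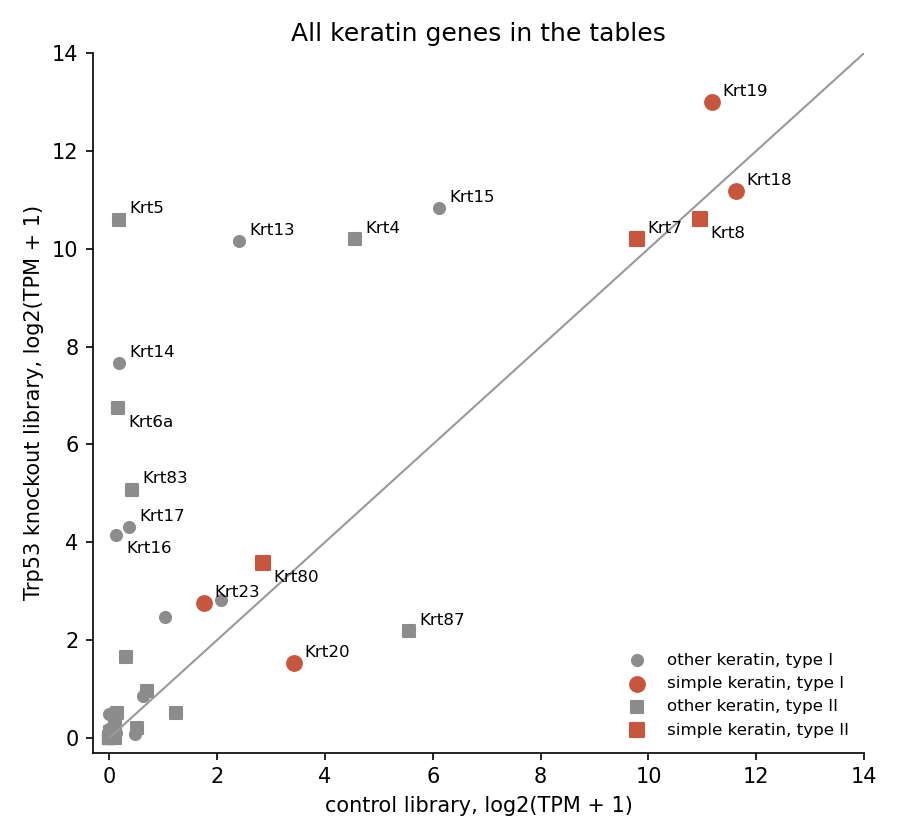
All 53 keratin genes by log2(TPM + 1) in control organoids (x axis) and the Trp53 knockout library (y axis), circles for type I and squares for type II, the 7 simple keratins in red, and the line of equal values in grey. Krt18, Krt8 and Krt7 lie near the line, Krt19, Krt5, Krt14 and Krt13 above it, and Krt20 and Krt87 below it.

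Read against all genes, the simple keratins spread over both directions. Differences were taken as log2(TPM + 1) in knockout organoids minus that in control organoids. Genes entered at a mean TPM of 1 or more, and the pseudocount shrinks the differences of low genes. All 7 members entered. Of them 2 were at least 2-fold higher (Krt19 at 1.82 and Krt23 at 1.01), against 8.35% of the 11228 genes tested, and 1 was at least 2-fold lower (Krt20 at −1.90), against 15.3%. Together 3 of 7 were past 2-fold in either direction, against 23.6% of all genes. The other 4 were Krt80 at 0.73, Krt7 at 0.41, Krt8 at −0.35 and Krt18 at −0.44. The median of the 7 was 0.41, beside −0.17 over all genes tested. Over all genes 937 were higher and 1715 lower, a split that quantile normalization turned to 1292 and 1321. Of all tested genes, 97.1% had a lower difference than Krt19, and 6.57% had a lower difference than Krt20. The median over the genes of chromosome 11 was −0.17 and over those of chromosome 15 also −0.17, the same as over all genes.

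**Figure D5:**
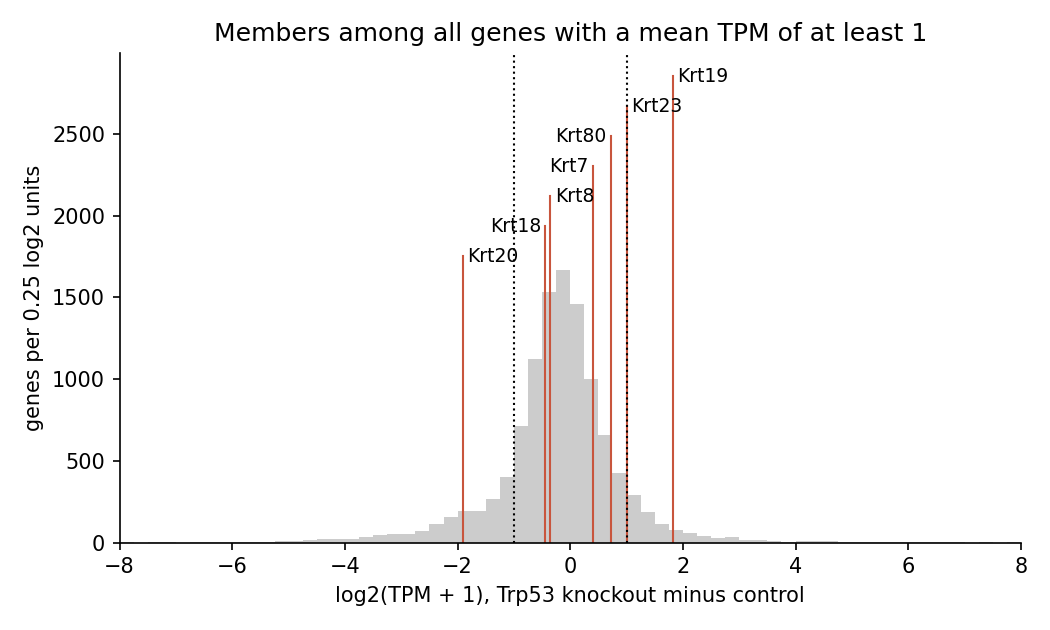
Histogram of the difference in log2(TPM + 1), Trp53 knockout minus control, over 11228 genes at a mean TPM of 1 or more (bins of 0.25, the end bins holding all genes beyond 8), with a red line for each of the 7 simple keratins at a height chosen for the label only and dotted lines at 2-fold. Krt20 lies left of the lower dotted line, Krt23 just past the upper one and Krt19 at 1.82.

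The genes most like each abundant member were those nearest to it in log2(TPM + 1) over the 2 libraries, which says only that their levels match. For Krt8 these were Spint2, a serine protease inhibitor of epithelia (1892 and 1516 TPM, at a distance of 0.077), Cox6a1, a subunit of cytochrome oxidase (1607 and 1635 TPM), and Ubb, a ubiquitin gene (1873 and 1212 TPM). For Krt18 the nearest were Fth1, the ferritin heavy chain (3036 and 2308 TPM, at a distance of 0.051), Gsta4, a glutathione transferase (2189 and 2388 TPM), and Hsp90ab1, a chaperone (2255 and 2783 TPM). For Krt7 they were Ndufa2, of respiratory complex I (969 and 1104 TPM), Tspan8, a tetraspanin (996 and 1157 TPM), and Eef1g, a translation factor (1003 and 1188 TPM). Among the genes searched, Krt19 had no near neighbour. The closest was Wfdc2, a secreted protease inhibitor of the reproductive tract, at 3423 and 4594 TPM and a distance of 1.01, followed by Ptma (3655 and 4329 TPM) and Ftl1, the ferritin light chain (2795 and 3815 TPM).

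Proteins that bind keratin filaments lay mostly on the higher side in knockout organoids. Of 12 such genes tested, 2 were at least 2-fold higher and 0 lower, against 8.35% and 15.3% of all genes tested. The median difference was 0.79, and some of the 12 were lower within 2-fold. Pkp1, a plakophilin of stratified desmosomes, was 0.709 and 5.18 TPM, and Evpl, envoplakin, was 5.34 and 13.8 TPM. Plec, plectin, which ties keratins to hemidesmosomes, was 6.73 and 13.7 TPM, just within 2-fold on this scale. Of 12 chaperones, kinases, adaptors and caspases that act on simple keratins, 2 were higher and 0 lower, against the same 8.35% and 15.3%. Their median difference was 0.08. Sfn, the 14-3-3 sigma adaptor, was 13.2 and 839.6 TPM, and Hspb1, a small heat shock protein, was 70.7 and 712 TPM. Mapkapk2, a stress kinase, was 79.9 and 59.8 TPM.

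Other intermediate filament genes included 5 tested members, of which 3 were higher and 0 lower, and the median difference was 1.17. Nes, nestin, was 2.56 and 38.2 TPM, Lmnb1, lamin B1, was 40.9 and 93.7 TPM, and Iffo2 was 2.73 and 8.73 TPM. Vim, vimentin, the filament protein of mesenchymal cells, was near 0 in both libraries (0.379 and 0.127 TPM). Of 10 transcription factors of simple epithelia 0 were higher and 2 lower, and the median difference was −0.52. Sox17, a factor of oviduct epithelium, was 86.5 and 22.5 TPM, Ovol2, which maintains epithelial identity, was 6.92 and 2.46 TPM, and Klf5, an epithelial Krüppel-like factor, was 44.0 and 75.2 TPM. Of 11 surface and junction genes of simple epithelia 2 were higher and 1 lower, and the median difference was −0.03. The claudin gene Cldn3 was 203.0 and 428 TPM, and Muc1, a membrane mucin, was 805 and 393 TPM. No theme is drawn from these lists, which were described by counts beside the same 8.35% and 15.3% over all genes.

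Markers of several cell types also differed between the 2 libraries, and their part in the keratin differences was not tested. Over all genes tested 8.35% were higher and 15.3% lower. Basal cell markers were higher in 4 of 5 cases and lower in 0, and they summed to 19.3 TPM and 1870 TPM in control and knockout organoids. Most of the knockout sum came from Krt5 and Krt14, which were also counted in the list of stratified keratins. The marker Trp63 was 0.0280 and 16.0 TPM. Ngfr, a receptor of basal cells, was 0.0829 and 73.1 TPM. Of 6 multiciliated cell markers 4 were tested and all 4 were lower, and the sum over the 6 was 181 and 60.2 TPM. Most of both sums was Foxj1, at 116 and 52.7 TPM in control and knockout organoids. Tppp3 and Ccdc153, genes of the ciliary apparatus, were 12.3 and 11.6 TPM in control organoids, and both stood at 0 in the knockout table. Set against a floor of 3 reads in that library they were 134-fold and 94.2-fold lower. The exact counting intervals of their knockout to control ratios reached up to 0.0092 and 0.0131. Rsph1, of the radial spoke, was 40.4 and 7.50 TPM. Of the 4 oviduct secretory markers 3 were lower, Ovgp1 (7.44 and 0.192 TPM), Sox17 and Msx2 (8.78 and 3.34 TPM). Pax8, the remaining one, was within 2-fold.

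Mesothelium also carries simple keratins. Of its 6 markers 3 were tested, 0 were higher and 1 was lower, and their sum was 279.8 and 241 TPM, nearly all of it from Msln (243 and 232 TPM) and Wt1 (35.3 and 7.85 TPM), which oviduct epithelium is known to express too. The more specific markers Lrrn4, Upk1b and Gpm6a were below 0.05 TPM in both libraries, and Upk3b was 1.27 and 1.41 TPM. Of 5 smooth muscle markers Acta2 alone was tested (1.07 and 17.8 TPM), and Cnn1 was listed at 0 in both libraries. Of 5 immune markers Csf1r alone was tested (8.78 and 0.420 TPM), and Cd3e and Cd79a were listed at 0 in both libraries.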

How the data were processed

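RNA was measured in 1 control and 1 Trp53 knockout library, grouped by the genotype labels. Total RNA was extracted with an RNeasy Plus kit and sequenced as paired reads of 50 bases from strand-preserving libraries, per the labels' protocols. The authors deposited TPM for 25668 gene symbols per library. The genome build is GRCm39, per the submitters' processing notes. Not given in the sources used here are the aligner, the annotation, and the counting tool with its strand setting and its treatment of reads that fit several genes.

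The value of 1 read was found from ratios of low TPM values between the libraries, which are fractions of whole numbers times 1 constant (3.37), and from gene lengths. With the union of exons of protein-coding transcripts in GENCODE M21 (GRCm38, used for lengths only), 80.8% of 16047 genes, and 77.6% of 10294 genes with over 50 reads in both libraries, had read numbers within 0.02 of whole in both. All 7 keratins did. For a gene of 1000 bases 1 read equals 0.0168 TPM (control) or 0.0565 TPM (knockout). This length rule was chosen after the data were examined. Reads of the other genes are estimates.

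With 1 library a group no test was possible. Differences are log2(TPM + 1) with a mean TPM of at least 1, called at 2-fold. The steps were tested on simulated reads built with the same gene lengths, so this could not test the choice of lengths. The members and all gene lists were chosen with earlier results of these data known. Named genes are the 7 members, Trp53, the 3 largest differences of each list, the 3 genes nearest to each member whose mean TPM is 10 or more, and other keratins with over 5% of keratin TPM; 1 gene that this rule names is not reported here. Epcam, Cdh1, Pax8, Vim, Foxj1, Trp63, the neighbouring genes, Krt83, and untested or zero markers were chosen once their values were known. Alternatives changed the pseudocount (0.1 or 5), the minimum (none, or a mean TPM of 5), the scaling (median ratio, quantiles, or without mitochondrially encoded and the 100 highest other genes) and the threshold (4-fold). Levels per coding length were added after the data were examined. Python 3.11.15, numpy 2.4.6, pandas 2.3.3 and scipy 1.17.1 were used.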

Additional observations from a re-analysis of the deposited data

How the results depend on the processing

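With no replicates, the limits are the single library of each genotype and, for Krt20 and Krt23, the read numbers, which were 1121 and 64 for Krt20 and 221 and 160 for Krt23. All 7 members kept the direction of their difference in log2(TPM + 1) under each alternative that gave one. The ranges were 1.76 to 2.0 for Krt19, 0.24 to 0.59 for Krt7, −0.56 to −0.18 for Krt8, −0.69 to −0.26 for Krt18, −2.32 to −1.10 for Krt20, 0.55 to 1.36 for Krt23 and 0.51 to 0.99 for Krt80. The number of members at least 2-fold higher was 1 in place of 2 with a pseudocount of 5 and with a mean TPM of at least 5, where Krt23 was no longer called or no longer tested. At 4-fold it was 0, and the number lower was 0 in place of 1. The median difference of the members, 0.41, was 0.030 with a mean TPM of at least 5, 0.59 after rescaling by the median ratio, 0.24 after quantile normalization and 0.43 without mitochondrially encoded and the 100 highest other genes. The log2 ratio of the summed TPM, 0.67, was 0.84, 0.57 and 0.68 under the last 3 of these. The type I to type II ratio was 2.02 times as large in the knockout as in control organoids, 2.18 times after quantile normalization and 1.89 times per coding length. Rescaling moved the median of all genes from −0.17 to −0.01 and quantile normalization moved it to 0.03. Over all genes 937 were higher and 1715 lower, but 563 and 930 with a pseudocount of 5, and 267 and 661 at 4-fold. No paired analysis was possible because each group holds 1 library.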

Other observations

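The type II keratin genes Krt87 and Krt83, which belong to the hair keratins and were singled out after their values were seen, moved in opposite directions. Krt87 directly follows Krt7 on chromosome 15 in RefSeq order. It stood at 45.9 and 3.52 TPM in control and knockout organoids, from 6225 and 142 reads, lower by a factor of 13.03. Krt83 stood at 0.344 and 32.7 TPM, from 36 and 1017 reads, a ratio of 95.1 (counting interval 68.2 to 137). Krt87 was the 1 keratin outside the simple group among the 13 tested that was at least 2-fold lower, against 15.3% of all genes tested. Of the 13, 11 were at least 2-fold higher, against 8.35% of all genes tested. Hair keratin genes are close in sequence, and how shared reads were counted is not given in the sources used here.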
